A study of Mus musculus with 4 samples.

Results

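The fibrillar collagen genes Col1a1, Col1a2, Col3a1, Col5a1, Col5a2, Col5a3, Col2a1, Col11a1 and Col11a2 were followed through single-cell RNA libraries of whole mouse noses at embryonic day 14.5. The 9 genes were taken by symbol from the 32285 genes counted, in all 13739 cells that had at least 500 genes detected and at most 10% of their transcripts from mitochondrial genes. There were 2 control libraries and 2 mutant libraries. The sample labels give the controls as C57Bl/6J, whereas the series' design text gives them as yap flox/flox;taz flox/flox with no Cre, and both descriptions are kept here because the files do not decide between them. The mutants are labelled as carrying Tg(Sox10-cre)1Wdr with the alleles Yapflox and Tazflox on C57Bl/6J, and titled Sox10Cre/Yap/Taz cKO, and the design text writes them as Sox10cre;yap flox/WT;taz flox/flox, so that by that text a wild-type Yap allele was kept in every cell. The transgene drives Cre from Sox10 sequences, which are active in the neural crest and its descendants. A whole nose also holds cells of other origins (the endothelium of vessels, macrophages, epithelium), in which no recombination is intended. YAP and TAZ are transcriptional co-activators of the Hippo pathway, which respond to cell contact and to the stiffness of the surroundings.

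Fibrillar collagens are secreted as triple helices of 3 chains, cut free of their propeptides outside the cell and packed side by side into banded fibrils. Type I (2 chains from Col1a1 and 1 from Col1a2) is the main collagen of bone, tendon and dermis, and type III (Col3a1) is mixed into it in soft and vascular tissue. Type V (Col5a1, Col5a2 and the less common Col5a3) starts type I fibrils and limits their width. In cartilage, type II (Col2a1) takes the place of type I and type XI (Col11a1, Col11a2 and a chain from the Col2a1 gene) takes that of type V. Chains of types V and XI can also assemble with each other.

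Values are unique molecular identifiers (UMIs, 1 per captured transcript) summed over cells and given as CPM, that is, scaled to the same total of UMIs in every group of cells. Transcripts were counted from their 3′ ends, so a CPM does not grow with transcript length, but capture can differ between genes. A ratio between chains is therefore a ratio of captured transcripts, not of protein. The libraries held 4075, 2474, 2995 and 4195 cells that passed, in the order control 1, control 2, mutant 1 and mutant 2 used throughout, with 19767873 to 35331450 UMIs in all and medians of 5282 to 8549 UMIs per cell. Pairs of libraries shared 4 to 8 cell barcodes. The mutant 2 library had the lowest median depth. Yap1, the gene of YAP, was at 65.0, 65.2, 56.4 and 56.0 CPM, and Wwtr1, the gene of TAZ, at 118, 145, 123 and 132 CPM. A count from the 3′ end need not fall in the deleted exons, so these values check no label. Nothing states that the libraries came from separate pregnancies, and p-values measure only the spread between these samples.

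Cell types were set by marker genes, none of them a fibrillar collagen. A cell entered a gate when it held a UMI of at least 3 of that gate's markers and, outside cartilage and bone, more of them than of the mesenchyme markers (Pdgfra, Prrx1, Prrx2, Twist1, Twist2, Alx1, Alx4, Msx1, Osr1). Of 12 gates defined, 8 held at least 20 cells in every library. These were chondrocyte-like cells (85, 42, 27 and 87), osteoblast-like cells (282, 79, 126 and 208), mural-like cells of the vessel wall (42, 28, 22 and 34), glia-like cells (44, 23, 32 and 20), endothelial-like cells (55, 28, 32 and 93), macrophage-like cells (71, 59, 47 and 84), epithelial-like cells (387, 124, 334 and 421) and mesenchyme-like cells (2589, 1762, 2066 and 2606). Every marker of each of these gates was detected in its own gate in every library. Cells in more than 1 gate (74, 28, 45 and 74) were left out, as were cells in none (388, 265, 235 and 543), except where all cells are given.

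Promoters of 6 of the 9 genes were matched in RefSeq (GRCm38.p6), each taken as the 250 bases before the gene's start. Those of Col1a2, Col3a1, Col11a1 and Col11a2 are shown because they stand for types I, III and XI and the results below turn on them: Col11a1 and Col11a2 were both highest in chondrocyte-like cells, while Col1a2 was higher and Col3a1 lower in osteoblast-like than in mesenchyme-like cells. Capitals mark matches on either strand to the motifs searched: CCAAT as in a CCAAT box, TATAAA as in a TATA box, GGGCGG as in a GC box, and the SOX-type words ACAAAG and, as its variant, ACAATG, where a match on the opposite strand reads as the reverse complement of the motif. None of these motifs overlaps another in the windows shown. Sequences run 5′ to 3′ on the gene's strand and end at the base before the RefSeq start, which for Col1a2 lies inside, and for Col11a2 before, the span of the GENCODE gene given below. The windows are chr6:4505368-4505617, chr1:45311288-45311537, chr3:114030290-114030539 and chr17:34038888-34039137, all on the plus strand.
Col1a2: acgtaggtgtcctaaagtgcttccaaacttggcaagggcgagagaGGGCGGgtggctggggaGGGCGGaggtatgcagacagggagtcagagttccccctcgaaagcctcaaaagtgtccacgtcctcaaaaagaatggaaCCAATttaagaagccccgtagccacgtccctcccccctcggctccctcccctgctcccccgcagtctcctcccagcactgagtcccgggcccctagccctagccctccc
Col3a1: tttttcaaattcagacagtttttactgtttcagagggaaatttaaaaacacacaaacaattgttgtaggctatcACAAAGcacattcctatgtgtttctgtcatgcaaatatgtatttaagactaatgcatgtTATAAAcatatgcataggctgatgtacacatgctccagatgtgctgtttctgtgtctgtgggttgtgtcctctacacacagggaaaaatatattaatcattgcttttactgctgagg
Col11a1: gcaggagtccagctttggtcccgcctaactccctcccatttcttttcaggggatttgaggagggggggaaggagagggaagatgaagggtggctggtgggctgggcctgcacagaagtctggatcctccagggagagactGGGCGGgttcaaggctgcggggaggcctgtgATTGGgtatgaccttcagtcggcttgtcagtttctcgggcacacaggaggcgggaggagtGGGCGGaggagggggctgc
Col11a2: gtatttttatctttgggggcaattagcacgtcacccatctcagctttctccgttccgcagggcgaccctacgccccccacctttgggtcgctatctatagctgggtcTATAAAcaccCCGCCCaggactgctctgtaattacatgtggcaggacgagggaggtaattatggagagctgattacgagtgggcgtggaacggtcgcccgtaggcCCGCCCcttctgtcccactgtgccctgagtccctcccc
The 3 promoters of Col1a2, Col11a1 and Col11a2 each hold 2 GGGCGG matches, and Col3a1 holds none. TATAAA lies in the windows of Col3a1, 117 bases before the start, and Col11a2, 143 bases before it. CCAAT lies in those of Col1a2 and Col11a1 (109 bases before the start, and on the opposite strand 79 bases before it). ACAAAG is in that of Col3a1 alone among the 4, and ACAATG in none. Of all 32851 windows of this length, 32.7% hold GGGCGG, 33.8% CCAAT, 16.5% ACAAAG, 12.4% TATAAA and 10.7% ACAATG, so that each of these short motifs is common. The windows of Col5a1 and Col5a3 also hold 2 GGGCGG matches each, and that of Col5a3 a CCAAT.

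In GRCm38 coordinates, the build the submitters' notes name as mm10, Col1a1 (ENSMUSG00000001506) spans 94936224 to 94953042 on chromosome 11 (plus strand). Col1a2 (ENSMUSG00000029661) spans 4504814 to 4541544 on chromosome 6 (plus). Both chains of type I are thus encoded on different chromosomes. Col3a1 (ENSMUSG00000026043; chromosome 1, 45311538 to 45349706, plus) and Col5a2 (ENSMUSG00000026042; chromosome 1, 45374321 to 45503282, minus) point toward each other, 24.6 kb apart. Col5a1 (ENSMUSG00000026837) lies on chromosome 2 from 27886425 to 28039514 (plus), and Col5a3 (ENSMUSG00000004098) on chromosome 9 from 20770050 to 20815067 (minus). Col2a1 (ENSMUSG00000022483) lies on chromosome 15 from 97975602 to 98004695 (minus). Col11a1 (ENSMUSG00000027966) spans 114030540 to 114220718 on chromosome 3 and Col11a2 (ENSMUSG00000024330) 34039437 to 34066685 on chromosome 17 (both plus).

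Over all cells, the 9 genes took 0.601%, 0.578%, 0.454% and 0.562% of each library's UMIs. Col1a1 (1935, 1810, 1262 and 1688 CPM), Col1a2 (1788, 1623, 1310 and 1620) and Col3a1 (1233, 1328, 1149 and 1204) gave most of these. Col5a2 (451, 552, 439 and 489 CPM) stood above its partner Col5a1 (156, 181, 133 and 151) in every library. Col11a1 was at 275, 209, 176 and 254 CPM. The cartilage chain Col2a1 (142, 70.4, 56.0 and 181 CPM) and Col11a2 (29.1, 6.73, 12.9 and 31.6) varied most between libraries, being high in control 1 and mutant 2 and low in control 2 and mutant 1, across genotypes. Col5a3 was at 1.11 to 1.86 CPM. The chondrocyte-gated share of cells (2.09%, 1.70%, 0.902% and 2.07%) was also highest in control 1 and mutant 2, but control 2 exceeded mutant 1 in this share and in Col2a1 and lay below it in Col11a2. In sums over all cells fewer cells of a type and fewer transcripts per cell cannot be told apart.

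**Figure D1:**
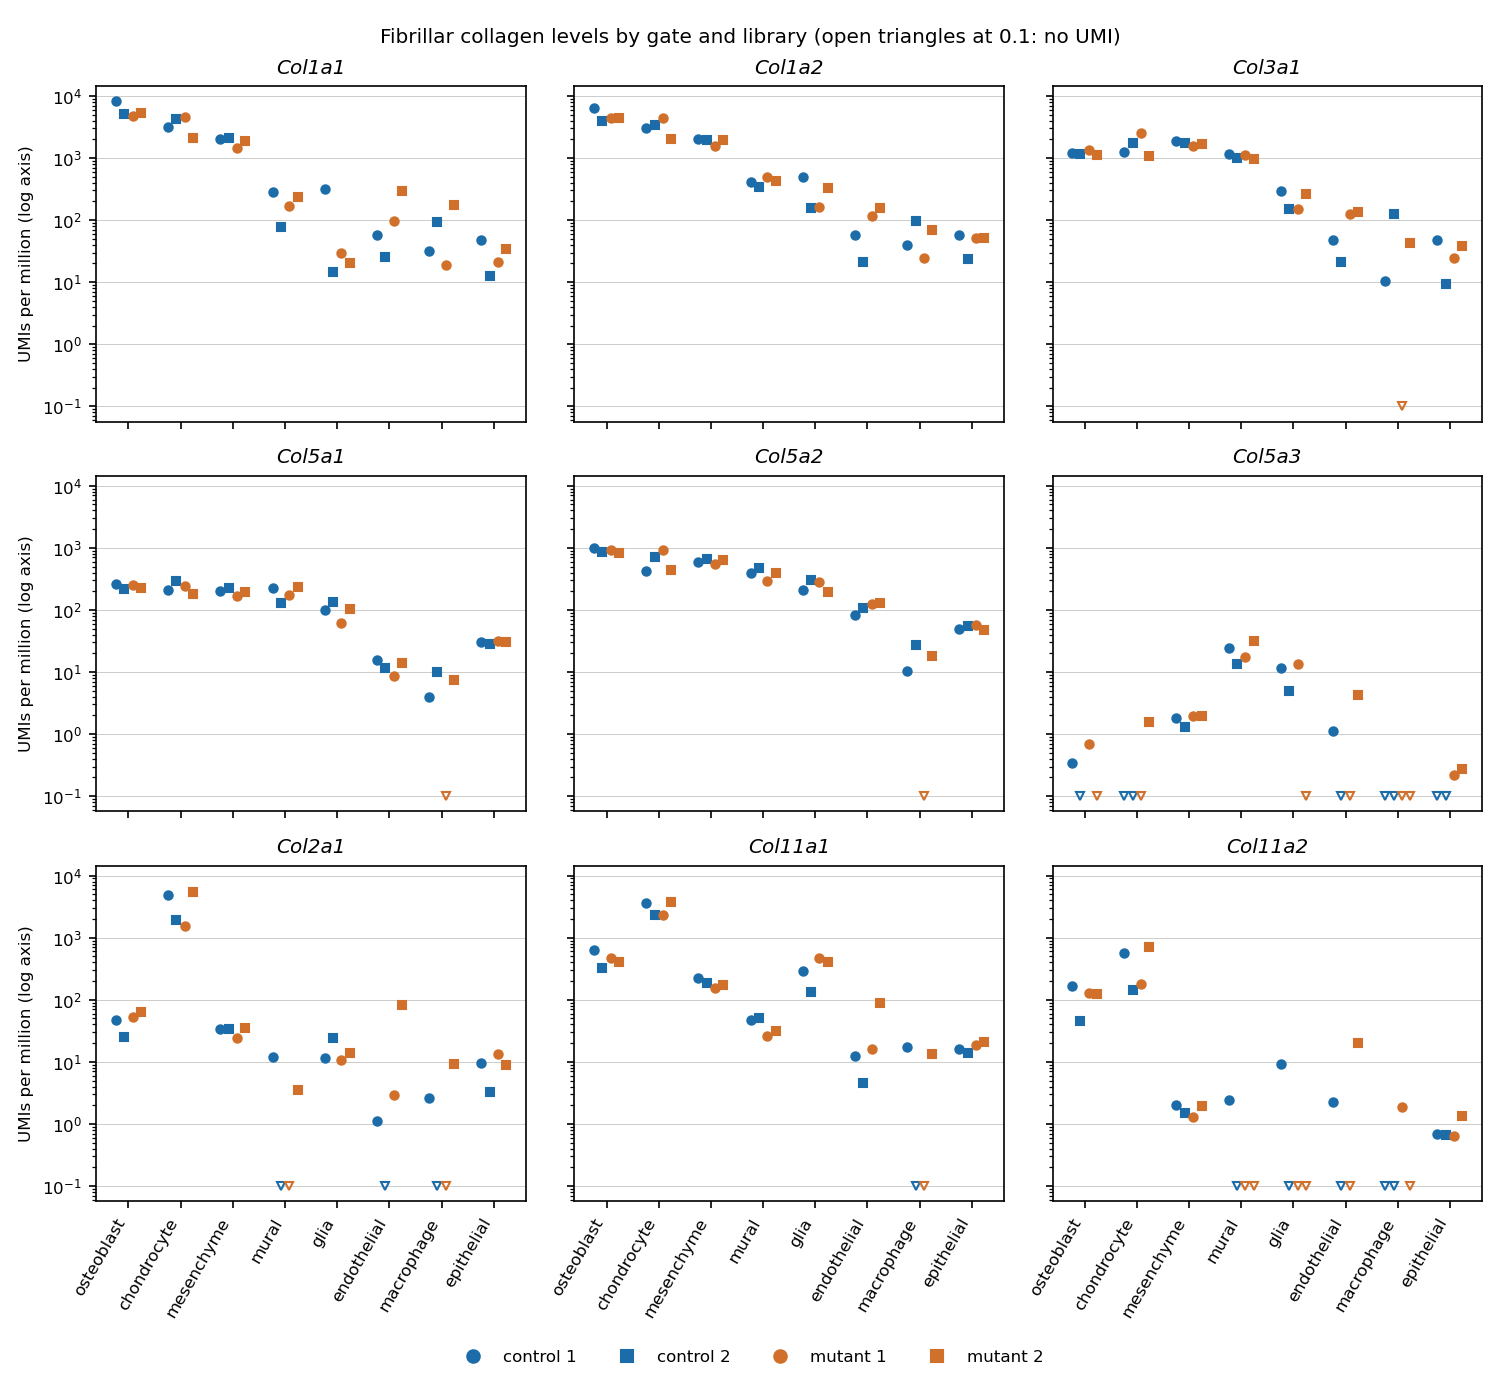
Level of each fibrillar collagen gene (CPM, log scale) in the marker-gated cell types, 1 point per library and colours for control and mutant. Among these 8 gates type I is highest in osteoblast-like cells (Col1a1 5888 CPM on average), types II and XI in chondrocyte-like cells (Col2a1 3427 CPM), and Col5a3 in mural-like cells (21.7 CPM).

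Among the 8 gates, type I collagen was most abundant in osteoblast-like cells, the cells that lay down bone. The small group of tendon-like cells inside the mesenchyme gate, described below, held more still (Col1a1 7838 ± 1188 CPM, SD, n = 4). In osteoblast-like cells Col1a1 was at 8203, 5137, 4809 and 5404 CPM. In mesenchyme-like cells it was at 2013, 2111, 1458 and 1869 CPM, and the 2 ranges did not overlap. The difference was 1.77 ± 0.09 on the log2 scale (SE, edgeR quasi-likelihood test over 4 libraries paired by library, adjusted p = 4.4e-09). Col1a2 was at 6291, 3917, 4472 and 4398 CPM in osteoblast-like cells and at 2038, 1938, 1545 and 1960 CPM in mesenchyme-like cells, a difference of 1.47 ± 0.08. The control 1 library was the highest for both chains in osteoblast-like cells. Over gates, Col1a1 was ordered osteoblast-like (5888 ± 1562 CPM, SD, n = 4), chondrocyte-like (3518 ± 1118), mesenchyme-like (1863 ± 288) and mural-like (194 ± 91), with no overlap between neighbours. Below these, endothelial-like, glia-like, macrophage-like and epithelial-like cells overlapped with their neighbours in that order. The lowest chondrocyte-like library (2112.5 CPM) lay barely above the highest mesenchyme-like library (2111 CPM). With 4 markers required, the Col1a1 difference between chondrocyte-like and mesenchyme-like cells was no longer called, as given below. For Col1a2 the order of the top 4 gates was the same, with overlaps between osteoblast-like, chondrocyte-like and mesenchyme-like cells in turn.

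All 9 genes differed between osteoblast-like and mesenchyme-like cells, 7 higher and 2 lower, where 15.9% of all genes tested were higher and 14.8% lower. Col3a1, the chain of type III, was lower, at 1207, 1179, 1336 and 1104 CPM against 1850, 1722, 1560 and 1703 CPM in mesenchyme-like cells, without overlap. Its difference was -0.38 ± 0.07 on the log2 scale (edgeR adjusted p = 0.000599). Col11a2, the rarer type XI chain, differed most, at 168, 45.8, 129 and 126 CPM against 2.00, 1.52, 1.29 and 1.91 CPM (6.27 ± 0.17). Bone-forming cells are known mainly for type I, and this cartilage chain was nevertheless high in every osteoblast-like library. Col11a1 (626, 325, 480 and 411 CPM) was higher by 1.44. Col5a2 (980, 849, 909 and 819 CPM) and Col5a1 (260, 219, 249 and 226 CPM), the fibril-starting chains, were higher by only 0.68 and 0.43. Col2a1 was at 47.3, 25.1, 52.5 and 63.8 CPM, and higher by 0.76. In control 2, Col5a1 and Col2a1 lay below their mesenchyme-like levels (222 and 33.3 CPM). Col5a3 was lower by 2.53 ± 0.78 (edgeR adjusted p = 0.0233), a difference between counts near 0. The summed chondrocyte markers in osteoblast-like cells were at 20.7 to 44.3 CPM, against 2030 to 5593 CPM in chondrocyte-like cells, and 0 to 6 of the 9 were undetected there depending on the library. Their part in the Col11a2 and Col2a1 levels of the osteoblast-like cells was not tested.

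Within the osteoblast gate, cells with 5 or more markers differed from those with 3 or 4. Cells with at least 5 markers (87, 19, 25 and 52) had Col1a1 at 17233, 10853, 12006 and 13011 CPM, against 2977, 2605, 2252 and 2130 CPM in the others (195, 60, 101 and 156 cells). Col11a2 was at 423, 131, 408 and 349 CPM against 21.1, 7.9, 29.5 and 29.4 CPM. Col3a1 ran the other way, at 538, 792, 426 and 660 CPM against 1593, 1350, 1660 and 1295 CPM. For all 3 genes the ranges of the 2 marker classes over the libraries did not overlap. Deeper cells show more markers, and median depth was 10325.5 to 14710 UMIs in the upper class and 7966 to 10380.5 in the lower, and its part in the split was not tested.

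**Figure D2:**
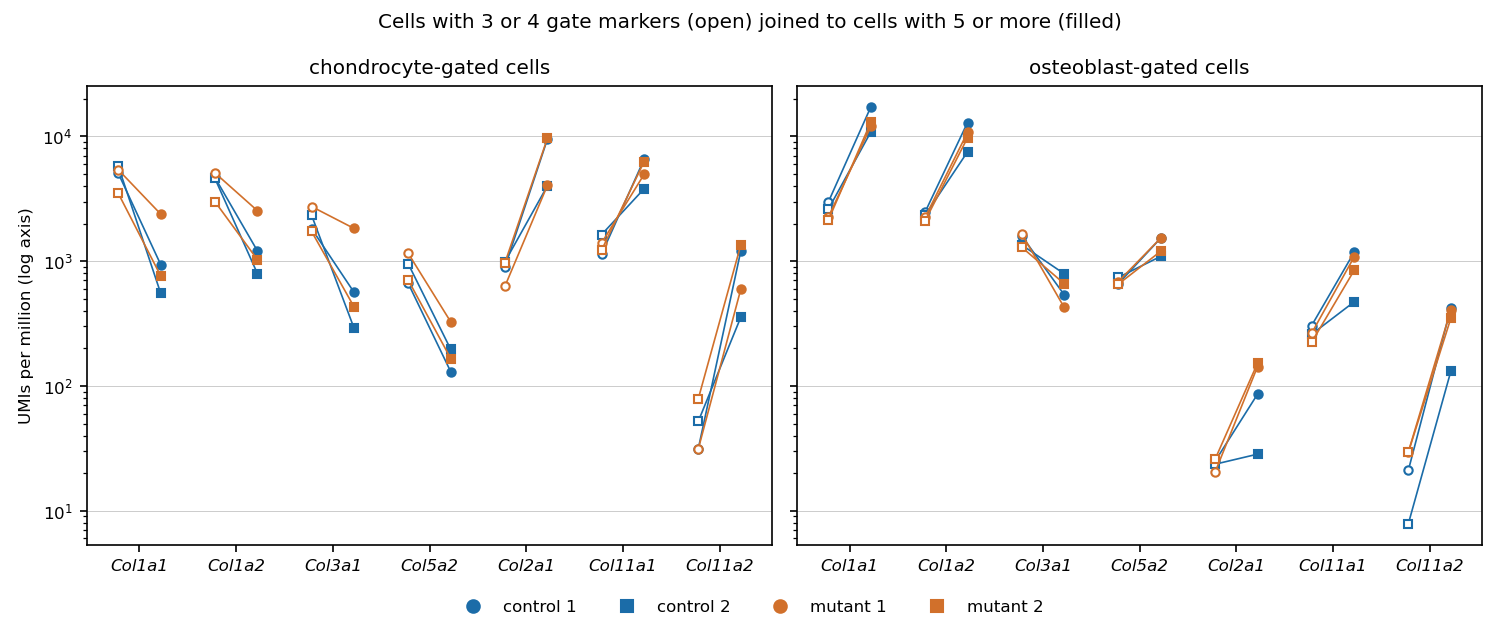
Levels of 7 fibrillar collagen genes (CPM, log scale) in chondrocyte-gated and osteoblast-gated cells that hold 3 or 4 markers and in those that hold 5 or more, 1 line per library. In chondrocyte-gated cells Col2a1 is higher and Col1a1 lower in the class with more markers in every library, and in osteoblast-gated cells Col1a1 is higher and Col3a1 lower.

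Chondrocyte-like cells, which make cartilage, held the chains of types II and XI. Col2a1 was at 4891, 1895, 1547 and 5373 CPM, against 33.9, 33.3, 24.0 and 34.9 CPM in mesenchyme-like cells, a difference of 6.60 ± 0.20 on the log2 scale. Control 1 and mutant 2 were high and control 2 and mutant 1 low, as in the sum over all cells. Col11a2 was at 576, 143, 182 and 721 CPM, also with control 1 and mutant 2 as the higher pair, and differed by 7.84 ± 0.23. Col11a1 was at 3648, 2282, 2353 and 3779 CPM and differed by 4.01 ± 0.11. These 3 were among the 5 members called higher and 0 called lower by edgeR, where 7.05% of all genes tested were higher and 7.61% lower. Col2a1 and Col11a1 in chondrocyte-like cells (3427 ± 1984 and 3016 ± 808 CPM) overlapped with no other gate, whereas Col11a2 (405 ± 287 CPM) overlapped with osteoblast-like cells (117 ± 51 CPM).

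The other 2 members called were Col1a1 (3152, 4214, 4592 and 2112.5 CPM) and Col1a2 (3071, 3463, 4410 and 2002 CPM), higher by 0.87 ± 0.12 and 0.74 ± 0.12 (edgeR adjusted p = 1.1e-05 and 7.8e-05). With 4 markers required in place of 3, these differences became -0.08 and -0.15 and were no longer called (edgeR adjusted p = 0.777 and 0.538). The split by markers gives the same contrast within the gate. In chondrocyte-gated cells with 3 or 4 markers (42, 29, 18 and 40), Col1a1 was at 5067, 5781, 5404 and 3499 CPM and Col2a1 at 898, 988, 629 and 969 CPM. In those with 5 or more (43, 13, 9 and 47 cells), Col1a1 was at 936, 551, 2380 and 761 CPM and Col2a1 at 9512, 4017, 4052 and 9665 CPM. The upper class thus held more Col2a1 than Col1a1 in every library and the lower class more Col1a1 than Col2a1. Col11a1 was likewise higher in the upper class (6552, 3802, 4958 and 6270 CPM) than in the lower (1138, 1631, 1398 and 1224 CPM), and so was Col11a2 (1205, 355, 595 and 1347 CPM against 31.3, 52.0, 31.2 and 78.7 CPM). Col3a1 was at 1822, 2335, 2738 and 1731 CPM in the lower class and 562, 290, 1827 and 429 CPM in the upper, with mutant 1 standing apart from the other libraries in a class of 9 cells. Summed osteoblast markers in the chondrocyte gate were 224 to 464 CPM, highest in mutant 1, with 3 to 5 of 9 at 0, and their part in the type I level was not tested.

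Counted cell by cell, Col2a1 exceeded Col1a1 in 56 of 85 chondrocyte-gated cells of control 1 (65.9%, exact 95% interval 54.8 to 75.8) and 25 of 42 of control 2 (59.5%, 43.3 to 74.4). It did so in 10 of 27 of mutant 1 (37.0%, 19.4 to 57.6) and 59 of 87 of mutant 2 (67.8%, 56.9 to 77.4). The intervals cover counting error only and overlap between all 4 libraries. With 2 libraries against 2, the smallest p an exact permutation test allows is 0.33, so that test could not call a difference in these shares.

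Few cells supplied much of some chains. Chondrocyte-gated cells were 0.902% to 2.09% of cells and held 69.4%, 48.6%, 25% and 71.2% of their library's Col2a1 UMIs. Osteoblast-gated cells were 3.19% to 6.92% of cells and held 35.0%, 13.2%, 19.2% and 23.2% of Col1a1 and 47.9%, 31.6%, 50.4% and 28.7% of Col11a2. Col3a1 was spread with the cells: mesenchyme-like cells, 62.1% to 71.2% of cells, held 80.0% to 87.0% of it.

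Mesenchyme-like cells carried the chains of types I and III and, of type V, Col5a1 and Col5a2, with Col5a3 at 1.29 to 1.97 CPM. Col1a1, Col1a2 and Col3a1 were there at nearly equal levels (1863 ± 288, 1870 ± 221 and 1709 ± 119 CPM), with Col5a2 at 583, 672, 543 and 640 CPM, Col5a1 at 203, 222, 165 and 193 CPM and Col11a1 at 221, 188, 153 and 175 CPM. For Col3a1 the gates with the highest levels, mesenchyme-like, chondrocyte-like (1631 ± 638 CPM), osteoblast-like (1206 ± 97) and mural-like (1060 ± 99), each overlapped with the next, and all 4 stood above glia-like cells (214 ± 72). Col5a1 had the flattest profile of these: osteoblast-like, chondrocyte-like, mesenchyme-like and mural-like cells lay at 239, 231, 196 and 191 CPM and overlapped in turn. Within the mesenchyme gate, cells that also held at least 3 tendon markers (Scx, Tnmd, Mkx, Fmod, Thbs4, Kera) numbered 36, 30, 19 and 19. In these tendon-like cells Col1a1 was at 7162, 6622, 8282 and 9287 CPM and Col3a1 at 3483, 3437, 4957 and 4357 CPM, so both chains were high together. Col5a1 (398, 431, 503 and 480 CPM) and Col11a1 (1167, 913, 827 and 1134 CPM) were also above their mesenchyme-wide levels in every library. Meninges-like cells (144, 121, 83 and 84) held Col1a1 at 3366, 3883, 2724 and 4099 CPM and Col3a1 at 2845, 3031, 2087 and 2936 CPM. Palatal-like cells had Col1a1 at 2025, 1625, 1127 and 1353 CPM. These smaller gates lie within the mesenchyme gate and were described without a test.

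Mural-like cells, the pericytes and smooth muscle cells around vessels, kept type III while having little type I. Col3a1 was at 1174, 993, 1109 and 963 CPM, 0.66 ± 0.09 below mesenchyme-like cells on the log2 scale, whereas Col1a1 was at 287, 77.9, 171 and 239 CPM, 3.26 ± 0.17 below. Col1a2 lay between, at 414, 346, 491 and 432 CPM (-2.13). Col5a1 was at 223, 129, 175 and 235 CPM, with a difference of -0.01 that was not called (edgeR adjusted p = 0.973). Col5a3, the rare type V chain, was higher than anywhere else among the 8 gates, at 24.0, 13.6, 17.5 and 31.6 CPM against 1.79, 1.29, 1.93 and 1.97 CPM in mesenchyme-like cells (3.65 ± 0.54, edgeR adjusted p = 2.9e-06). That rests on 10, 4, 4 and 9 UMIs. Of the members, 1 was higher and 6 lower by edgeR, where 9.36% of genes were higher and 11.3% lower. The gate asks for more mural than mesenchyme markers, and without that condition the signs of 4 differences turned: Col1a1 0.26, Col1a2 0.29, Col3a1 0.31 and Col5a2 0.12. Summed mesenchyme markers in mural-like cells were 403 to 886 CPM, against 2029 to 2293 CPM in mesenchyme-like cells. Their part in the levels of the mural-like cells was not tested.

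Glia-like cells held Col11a1 with little of the cartilage chain that usually accompanies it. Col11a1 was at 292, 133, 474 and 399 CPM, higher than in mesenchyme-like cells in 3 of 4 libraries and lower in control 2 (0.74 ± 0.16, edgeR adjusted p = 0.000155). Col2a1 had a mean of 15.1 CPM there and Col11a2 of 2.31 CPM. Mesenchyme-like cells also held little of both (means 31.5 and 1.68 CPM). The call did not hold with 4 markers required (0.48, edgeR adjusted p = 0.0886), with DESeq2 (0.68, adjusted p = 0.183) or without mutant 1 (0.36, edgeR adjusted p = 0.170). Col5a3 (11.6, 4.91, 13.4 and 0 CPM) was higher by 2.28 ± 0.71 (edgeR adjusted p = 0.0113), a call that was lost without control 1 or without mutant 1. Of the members, 2 were higher and 6 lower, where 9.39% of genes were higher and 13.4% lower. Col1a1 was at 319, 14.7, 29.5 and 20.6 CPM, and in control 1 5 cells held 92.0% of its 138 UMIs. Col5a2 (206, 305, 281 and 193 CPM) and Col5a1 (99.5, 133, 61.6 and 103 CPM) were spread over all 4 libraries. Summed chondrocyte markers in glia-like cells were 136, 29.5, 244 and 213 CPM, with 5, 6, 7 and 6 of 9 at 0. In mesenchyme-like cells they were 30.2 to 44.5 CPM. Their part in the Col11a1 level of the glia-like cells was not tested.

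Macrophage-like, endothelial-like and epithelial-like cells are not known as main sources of type I collagen, and free transcripts from other cells can add to their counts. In macrophage-like cells Col1a1 was at 31.5, 93.2, 18.7 and 175.6 CPM, which is 1.6%, 5.2%, 1.5% and 10.4% of the level over all cells. Its 24, 55, 10 and 116 UMIs lay in 11, 8, 4 and 11 cells, and the 5 cells with most of them held 75.0%, 94.5%, 100% and 93.1%. So the signal was not spread evenly over the cells of the gate. Thinned to 2000 UMIs per cell, 4.3%, 5.9%, 0% and 8.5% of macrophage-like cells held a Col1a1 UMI, 5.0%, 4.1%, 3.4% and 4.0% of epithelial-like cells, and 84.4%, 83.1%, 80.9% and 83.4% of mesenchyme-like cells. Unthinned, the macrophage-like shares were 15.5%, 13.6%, 8.5% and 13.1%. The 0% in mutant 1 is of 43 cells and its exact 95% upper limit is 8.2%. Summed mesenchyme markers in the macrophage gate were 42.0, 107, 7.5 and 95.4 CPM, highest in control 2 and mutant 2, where Col1a1 was also highest, with 3, 1, 5 and 1 of 9 at 0. Their part in the Col1a1 level was not tested.

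Of the type V chains, Col5a2 in endothelial-like and epithelial-like cells and Col5a1 in epithelial-like cells stood further above the macrophage-like level. Col5a2 was at 10.5, 27.1, 0 and 18.2 CPM in macrophage-like cells, 48.8, 55.5, 56.2 and 47.8 CPM in epithelial-like cells and 84.0, 107, 124 and 127 CPM in endothelial-like cells, the 3 ranges being separate. As shares of the level over all cells these are 0% to 4.9%, 9.8% to 12.8% and 18.6% to 28.3%, and the share of Col5a2 thus differed between the 3 cell types. A Col5a2 UMI was found in 54.5%, 46.4%, 65.6% and 60.2% of endothelial-like cells, before thinning. Col5a1 was at 30.2, 27.7, 31.4 and 29.9 CPM in epithelial-like cells, 15.4% to 23.6% of the level over all cells, while Col1a1 was there at 47.8, 12.5, 21.3 and 34.8 CPM, 0.7% to 2.5% of it. With likely doublets removed, the Col1a1 level in epithelial-like cells dropped from a mean of 1.73% to 0.792% of that over all cells. In endothelial-like cells Col5a1 was at 15.7, 11.6, 8.76 and 13.9 CPM, 10.0%, 6.4%, 6.6% and 9.2% of the level over all cells, which is within the range of Col1a1 in macrophage-like cells. In control 1, 5 epithelial-like cells held 38.6% of the Col1a1 UMIs but 12.4% of the Col5a1 UMIs. Col5a1 was thus the more evenly spread of the 2 in that library, and also in the others (35.7%, 11.6% and 13.6% for Col5a1, 84.2%, 61.6% and 55.5% for Col1a1).

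Against mesenchyme-like cells, edgeR called 9 members lower and 0 higher in epithelial-like cells (31.3% of genes lower, 30.1% higher). It called 7 lower and 0 higher in macrophage-like cells (34.8% lower, 24.9% higher) and 6 lower and 0 higher in endothelial-like cells (24.5% lower, 19.6% higher). Col1a1 differed by -5.90, -4.48 and -4.07 in these 3 gates, and Col5a2 by -3.53, -5.23 and -2.37.

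The proportions of the chains changed with cell type. In mesenchyme-like cells Col1a1 and Col1a2 were captured at a ratio of 0.994 ± 0.067 (SD, n = 4), in osteoblast-like cells at 1.23 ± 0.11, in chondrocyte-like cells at 1.08 ± 0.09 and in mural-like cells at 0.455 ± 0.21. Col1a1 to Col3a1 was 1.09 ± 0.12 in mesenchyme-like cells and 4.91 ± 1.37 in osteoblast-like cells, 2.20 ± 0.35 in chondrocyte-like cells and 0.181 ± 0.081 in mural-like cells. Mural-like cells thus held mostly type III and osteoblast-like cells mostly type I transcripts. Col5a1 to Col5a2 was 0.321 ± 0.022 in mesenchyme-like cells, 0.268 ± 0.0083 in osteoblast-like cells, 0.576 ± 0.059 in epithelial-like cells and 0.119 ± 0.049 in endothelial-like cells. The endothelial-like ratio rests on only 5 to 14 Col5a1 UMIs per library. Col11a2 to Col11a1 was 0.246 ± 0.072 in osteoblast-like cells, 0.122 ± 0.062 in chondrocyte-like cells and 0.00912 ± 0.0013 in mesenchyme-like cells, so that mesenchyme-like cells held Col11a1 nearly without Col11a2. Col11a1 to Col2a1 was 1.04 ± 0.39 in chondrocyte-like cells, 5.89 ± 0.70 in mesenchyme-like cells and 10.4 ± 3.3 in osteoblast-like cells. Col2a1 to Col1a1 in chondrocyte-like cells ranged from 0.337 to 2.54 between libraries. With 4 markers required, the mean of that ratio was 3.92 and that of Col1a1 to Col3a1 in osteoblast-like cells 11.8, and without the mesenchyme condition Col1a1 to Col3a1 in mural-like cells was 1.04. Col5a3 to Col5a1 was 0.112 ± 0.015 in mural-like and 0.00914 in mesenchyme-like cells. In 43 exact tests of a ratio between a gate and mesenchyme-like cells (sign changes over 4 libraries, two-sided), the smallest p possible is 0.13 and the smallest adjusted p was 0.163. None could be called, whatever the separation of the ranges. In 61 exact permutation tests of a ratio between mutant and control libraries, the smallest adjusted p was 0.946.

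**Figure D3:**
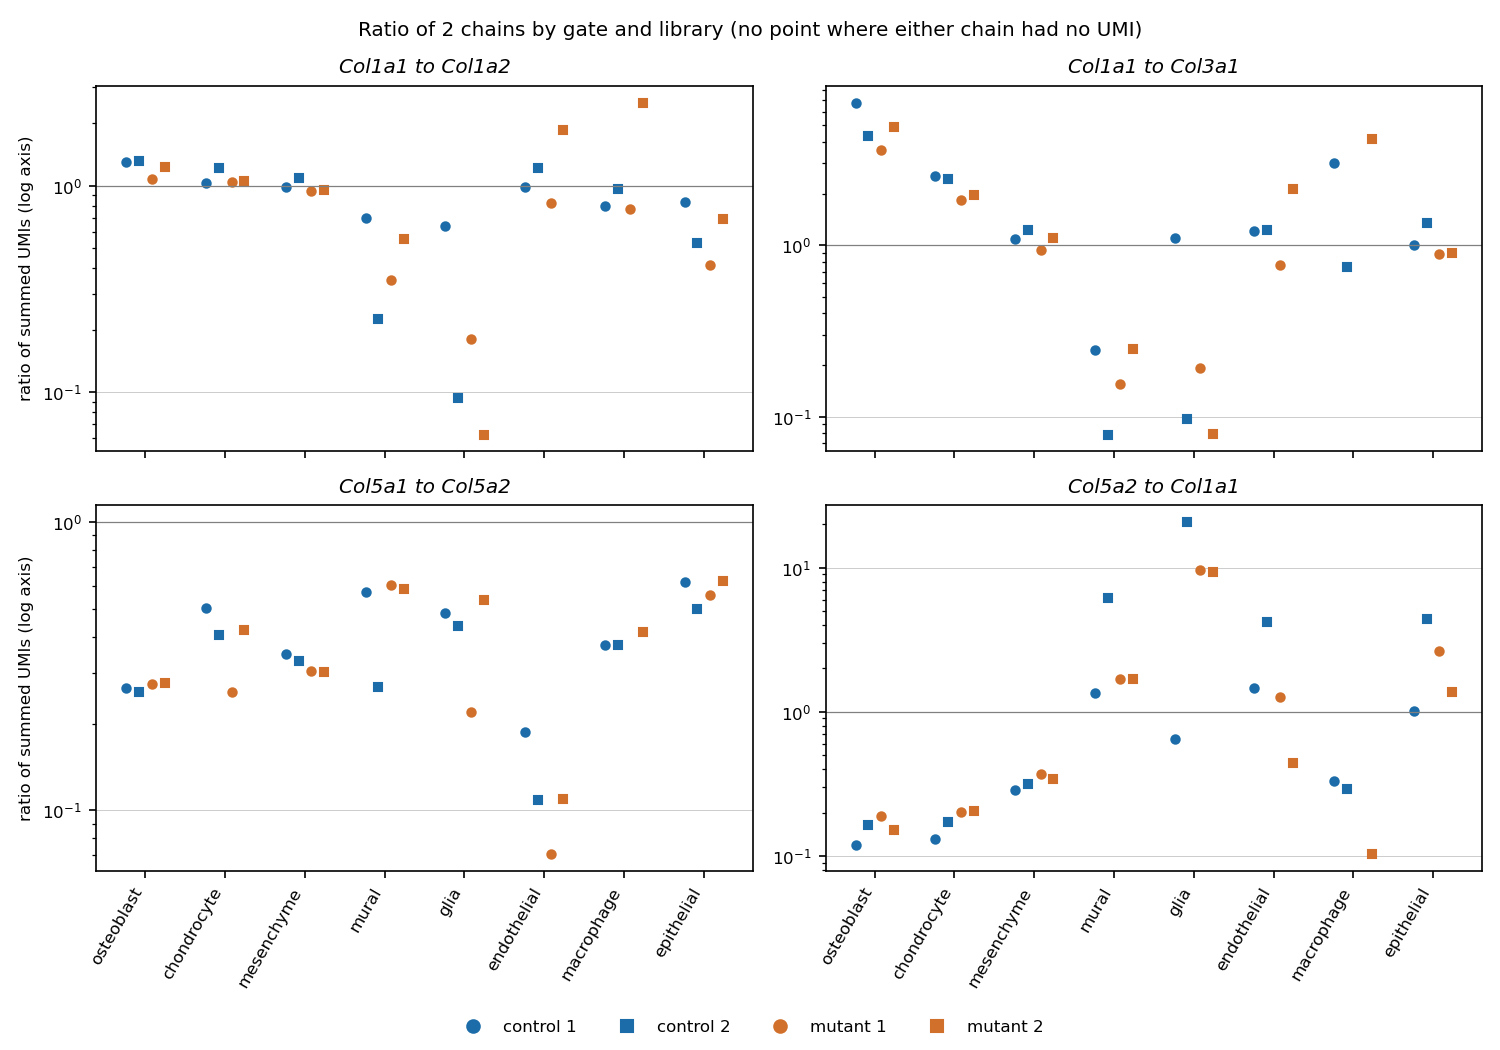
Ratios of captured transcripts between pairs of chains (log scale) in the marker-gated cell types, 1 point per library. Col1a1 to Col3a1 lies between 0.181 in mural-like and 4.91 in osteoblast-like cells on average, and Col5a1 to Col5a2 is 0.576 in epithelial-like and 0.119 in endothelial-like cells. The endothelial-like value rests on 5 to 14 Col5a1 UMIs per library.

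The genes that process and assemble these chains were followed in lists. Against mesenchyme-like cells, chain modification and folding genes were higher in chondrocyte-like cells in 15 of 19 and lower in 1 (median difference 1.07, against -0.05 over all genes tested), and in osteoblast-like cells higher in 13 and lower in 2 (median 0.76, all genes -0.01). In chondrocyte-like cells these included Plod2, a lysyl hydroxylase (2.34), and P4ha1 and P4hb, subunits of prolyl hydroxylase (1.69 and 1.07). In osteoblast-like cells they included Creb3l1, a transcription factor of bone collagen secretion (1.94), P4ha2 (1.85) and Fkbp10, a collagen chaperone (1.46). In mural-like cells 1 of the list was higher and 4 lower, in glia-like cells 0 and 10, and in epithelial-like cells 0 and 19. Over all genes, the shares higher and lower were 9.36% and 11.3% in mural-like, 9.39% and 13.4% in glia-like and 30.1% and 31.3% in epithelial-like cells, 7.05% and 7.61% in chondrocyte-like and 15.9% and 14.8% in osteoblast-like cells. Of propeptide processing genes, 3 were higher and 1 lower of 7 tested in chondrocyte-like cells and 5 and 1 of 7 in osteoblast-like cells. Pcolce2, an enhancer of C-propeptide removal, differed by 3.53 and 3.89 in the 2 gates, and Adamts3, an N-propeptide protease, by 1.96 in chondrocyte-like cells.

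The minor fibrillar chains divided the gates between them. Col27a1, a chain of cartilage, was higher by 2.75 ± 0.13 in chondrocyte-like cells (mean 404 CPM) and lower by 0.49 in osteoblast-like cells, and Col24a1, a chain of bone, was higher by 2.64 ± 0.09 in osteoblast-like cells (mean 222 CPM). Of fibril-associated collagens, which sit on the fibril surface, 6 of 7 tested were higher in chondrocyte-like cells (median 1.81), with Col9a1, Col9a2 and Col9a3 of type IX up by 6.29, 4.71 and 6.56. In osteoblast-like cells 2 of 8 were higher, among them Col22a1 (6.34), and 3 lower, among them Col14a1 (-2.14). Glia-like cells had 4 higher, including Col20a1 (5.08), and 1 lower. Of 5 cross-linking enzymes, 1 was higher and 1 lower in chondrocyte-like cells (Loxl3 3.13, Lox -0.73). In osteoblast-like cells 2 were higher and 1 lower (Loxl4 4.16, Loxl1 -1.64). Over all genes tested, 7.05% were higher and 7.61% lower in chondrocyte-like cells and 15.9% and 14.8% in osteoblast-like cells. In glia-like cells these shares were 9.39% and 13.4%.

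Fibril-binding proteoglycans and glycoproteins were higher in 8 and lower in 4 of 15 tested in chondrocyte-like cells, with Chad (6.21) and Fmod (3.26) among the former. In osteoblast-like cells 5 were higher and 7 lower, with Sparc, a collagen-binding protein of bone, at 1.12 and Dcn and Dpt at -2.27 and -4.17. For this and the next 2 lists, the shares over all genes were 7.05% higher and 7.61% lower in chondrocyte-like cells. They were 15.9% and 14.8% in osteoblast-like cells. Collagen receptors were higher in 2 of 7 and lower in 0 in chondrocyte-like cells and 3 and 2 in osteoblast-like cells. The receptor integrin subunit Itga10 was higher in both (3.52 and 4.13), and Itga1 in mural-like cells (5.36). Of regulators of these genes, 7 of 13 were higher in chondrocyte-like cells, including Sox9, Sox5 and Sox6, which together drive Col2a1 (3.75, 4.08 and 3.14). In osteoblast-like cells 6 of 13 were higher and 3 lower. Among the 6, Sp7 and Runx2 are markers of that gate and had to be high, and Sox6 was higher by 2.65.

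Across the 32 sums of 8 gates and 4 libraries, the genes most like each member by Pearson's r of log2(CPM + 10) were found among 9986 genes. The points share libraries and depth, so r is a description. For Col1a1 these were Prrx2, Lum and Serpinf1 (0.956, 0.954 and 0.950), the first 2 being gate markers. For Col3a1 they were Cdh11, Ddr2, a receptor for fibrillar collagen, and Prrx1, a gate marker (0.954, 0.950 and 0.944). Col1a2 was nearest to Fkbp14 (0.949) and Cdh11 (0.946), Col5a1 to Snhg18 (0.966), and Col5a2 to Adamts12 (0.949). Col2a1 was nearest to Col9a1, Mia and Fzd9 (0.965, 0.964 and 0.955), and Col11a1 to the collagen Col16a1 (0.952). Col5a3 was nearest to Gucy1b1, Atp1b2 and Gucy1a1 (0.923, 0.900 and 0.883), of which the first and last encode the subunits of soluble guanylate cyclase. Col11a2 was nearest to P4hb and Itga10 (0.921 and 0.896).

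Between mutant and control libraries, no fibrillar collagen was called over all cells by edgeR's quasi-likelihood test, where 0% of 18080 genes were called. DESeq2 called no member either. In edgeR, 1 of 9 members and 883 genes were at an unadjusted p under 0.05. Col1a1 was lower in both mutants than in both controls (log2 difference -0.38 ± 0.15, edgeR adjusted p = 0.909). Col1a2, Col3a1 and Col5a1 were also lower in both without overlap. That made 4 of 9 members, where 13% of all genes tested were lower in both. Col5a3 was higher in both (0.35), as were 24.9% of all genes. The median difference of the 9 was -0.16, against 0.001 over all genes.

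In mesenchyme-like cells, 0 of 9 members and 0% of 15945 genes were called by edgeR, and 0 members by DESeq2. In edgeR, 3 members and 1261 genes were at an unadjusted p under 0.05. Those 3 were Col1a1 (-0.35 ± 0.14, edgeR adjusted p = 0.591), Col5a1 (-0.29 ± 0.11, adjusted p = 0.591) and Col11a1 (-0.36 ± 0.12, adjusted p = 0.520). Their levels, given above, were lower in both mutants than in both controls, with mutant 1 the lowest for each. Col3a1 was also lower in both (-0.17), making 4 of 9 members where 14.9% of all genes were lower in both, and Col5a3 was higher in both (0.28), as were 26.2% of all genes. Col1a2, Col5a2, Col2a1 and Col11a2 overlapped between the groups (-0.22, -0.13, -0.24 and -0.21). The median of the 9 was -0.22, against 0.003 over all genes tested. Without either mutant or either control in turn, no member was called. No gene of the assembly lists was called in this comparison. The cross-linking enzymes had a median of -0.47 (Lox -0.59 ± 0.15, edgeR adjusted p = 0.399), and Fmod, a tendon marker, differed by -0.78 (adjusted p = 0.402).

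**Figure D4:**
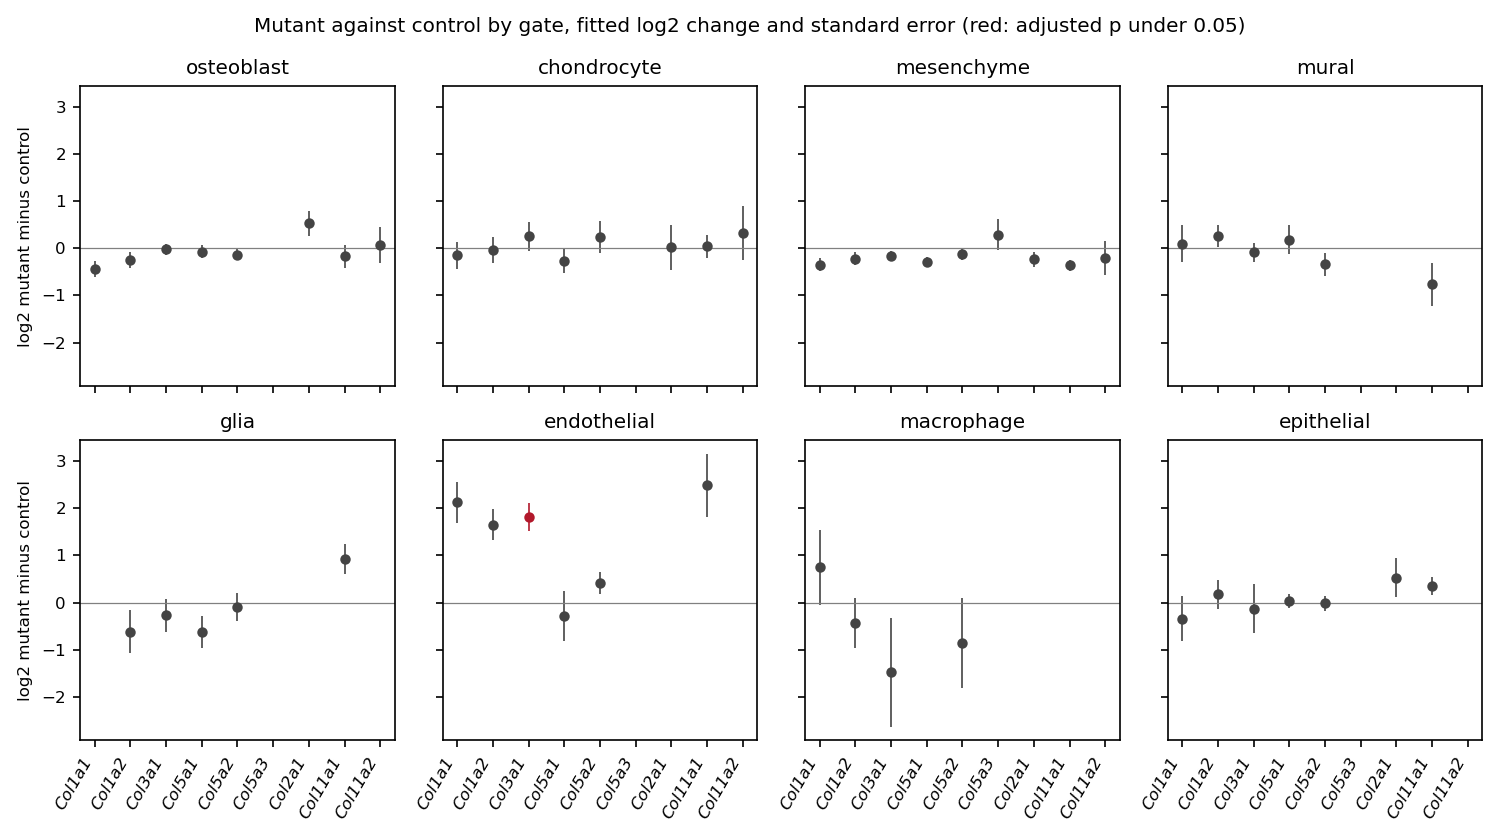
Log2 difference between mutant and control libraries (points, with SE as bars) for each fibrillar collagen gene in each gate where it was tested. Only Col3a1 in endothelial-like cells, 1.81 ± 0.30, passed an adjusted p of 0.05 by edgeR. Nearest to that limit are Col1a2 (1.65 ± 0.33) and Col1a1 (2.12 ± 0.43) in the same cells. The 3 mesenchyme-like differences at an unadjusted p under 0.05 lie between -0.36 and -0.29.

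The skeletal gates gave no call between genotypes. In chondrocyte-like cells 0 of 8 members tested and 0% of genes were called by edgeR and 0 members by DESeq2. In edgeR, 0 members and 246 genes were at an unadjusted p under 0.05. Leaving out control 1 called Col2a1 and Col11a2 as higher, and leaving out mutant 2 called Col2a1 as lower, so Col2a1 took either direction with the library left out. In osteoblast-like cells 0 of 8 members and 0% of genes were called, with 1 member (Col1a1, -0.44 ± 0.18, edgeR adjusted p = 1.00) and 430 genes at an unadjusted p under 0.05 and 0 members by DESeq2. Its mutant levels overlapped with the controls, since control 2 (5137 CPM) lay below mutant 2 (5404 CPM). Without control 2, whose remaining partner is then assumed to vary like the mutants, Col1a1 was called lower (-0.73, edgeR adjusted p = 6.6e-09) together with Col1a2. Without control 1 the Col1a1 difference was -0.08 (edgeR adjusted p = 0.841), and Col11a2 was called higher.

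In the remaining gates most members gave no call either. Macrophage-like (0 of 4 members, 0% of genes), glia-like (0 of 5, 0%) and epithelial-like cells (0 of 7, 0%) had no call by edgeR. No member was called there by DESeq2. At an unadjusted edgeR p under 0.05 there were 0, 1 and 0 members and 327, 260 and 575 genes. In mural-like cells 0 of 6 members were called by edgeR or DESeq2, where 1.36% of genes were called by edgeR. None of the 6 was at an unadjusted edgeR p under 0.05. Col11a1 in glia-like cells was higher in both mutants (0.93 ± 0.32, edgeR adjusted p = 0.893). Without control 1 it was called, at 1.69 (adjusted p = 0.00133). Col11a1 was also higher in both mutants in epithelial-like cells (0.35, edgeR adjusted p = 0.945) and lower in both in mural-like cells (-0.77, adjusted p = 0.608). Leaving out 1 library changed the number of members called in these gates, and also that of all genes called, with both ranges given at the end.

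Endothelial-like cells gave the only call between genotypes. Col3a1 was at 47.0, 20.9, 127 and 135 CPM, higher in both mutants than in both controls by 1.81 ± 0.30 on the log2 scale (edgeR adjusted p = 0.0161), 1 of 6 members tested where 0.266% of genes were called. Col1a1 was at 57.1, 25.6, 97.8 and 289 CPM (2.12 ± 0.43, edgeR adjusted p = 0.0586) and Col1a2 at 58.2, 20.9, 118 and 156 CPM (1.65 ± 0.33, adjusted p = 0.0571). Both were higher in both mutants, as were Col11a1 (12.3, 4.65, 16.1 and 88.8 CPM, 2.48 ± 0.67, adjusted p = 0.254) and Col5a2 (0.42 ± 0.23, adjusted p = 0.904), which makes 5 of 6 members where 17.4% of genes were higher in both. Without mutant 2 the differences were 1.11 for Col1a1, 1.41 for Col1a2 and 0.74 for Col11a1, none of them called, and without control 1 they were 2.96, 2.74 and 3.54, all called, as they also were without control 2 or without mutant 1. Col5a1 overlapped between the groups (-0.29). In the mutant 1 library, 2 cells held all 87 Col3a1 UMIs and 3 cells the 67 Col1a1 UMIs. Without the condition on mesenchyme markers the Col3a1 difference was 0.15 (edgeR adjusted p = 0.999), and without mutant 2 it was 1.76 and not called (adjusted p = 0.964). DESeq2 (1.87, adjusted p = 0.0804), 4 markers (1.69, edgeR adjusted p = 0.108) and stricter cell limits (1.72, edgeR adjusted p = 0.146) also ended the call. After removal of likely doublets Col3a1 no longer passed the filter on low counts and was not tested.

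In mutant 2, much of the type I, II and XI chains of endothelial-gated cells lay in shallow cells. Of its 93 endothelial-gated cells, 43 had under 5000 UMIs, against 7, 6 and 6 in the other libraries. Those 43 held Col1a1 at 1685 CPM, Col2a1 at 743, Col11a1 at 793 and Col11a2 at 178 CPM. They also held the cartilage genes Col9a1 (357 CPM) and Matn1 (149), the bone gene Ibsp (406), the basal epithelial keratin Krt5 (159) and the mitochondrial leucyl-tRNA synthetase gene Lars2 (1972), beside the endothelial genes Cdh5 (446) and Pecam1 (396). The mesenchyme marker Pdgfra was at 19.8 CPM in these 43 cells and the macrophage marker C1qa at 0. The 50 deeper cells of mutant 2 had Col9a1 and Matn1 at 0 and Ibsp and Krt5 at 1.2 CPM each, with Lars2 at 181 and Cdh5 at 792 CPM. High Lars2 was not particular to mutant 2. In control 1, control 2 and mutant 1 it was at 1535, 569 and 893 CPM in shallow cells and 266, 220 and 166 CPM in deeper ones. Genes of 3 tissues other than endothelium thus stood together in the shallow cells of mutant 2, and their source was not tested.

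In cells of 5000 UMIs or more, a limit set after the data were seen, Col1a1 was at 58.4, 26.6, 100.3 and 120 CPM and Col3a1 at 48.1, 19.4, 130 and 114 CPM. The cartilage chain Col2a1 was at 1.1, 0, 3.0 and 1.2 CPM there and Col11a1 at 12.6, 4.8, 16.5 and 3.6 CPM. Col3a1 was called in these cells (1.70, edgeR adjusted p = 0.0215). The mutant 1 value among them still rests on the few cells, given above, that held all of its Col3a1 UMIs. Before thinning, 20%, 14.3%, 9.4% and 51.6% of endothelial-like cells held a Col1a1 UMI, and at 2000 UMIs per cell 7.4%, 3.7%, 3.3% and 27.0%, with 1, 1, 2 and 19 shallower cells left out. Macrophage-like cells at that depth had 0% to 8.5%, and the exact 95% interval of mutant 2 alone (17.4% to 38.6%) lay above that of its macrophage-like cells (3.5% to 16.8%). Summed mesenchyme markers in the endothelial gate were 64, 42, 199 and 141 CPM, higher in both mutants as Col3a1 was, and endothelial markers 4588, 4764, 4792 and 4433 CPM. The part of the mesenchyme markers in the Col3a1 difference was not tested. Set against the change in macrophage-like cells, Col3a1 differed by 2.96 ± 1.05 (edgeR adjusted p = 1), Col1a2 by 2.07 ± 0.62 (adjusted p = 0.755) and Col1a1 by 1.47 ± 0.64 (adjusted p = 1). In edgeR, these 3 and Col11a1 (2.98), 4 of the 5 members tested, were at an unadjusted p under 0.05. None of the 5 was called by edgeR or DESeq2, where 0.0333% of genes were called by edgeR. With 1 library left out at a time, the Col3a1 value of that comparison ranged from 0.42 to 9.82. It ranged from 0.97 to 3.72 for Col1a2 and from 0.27 to 2.98 for Col1a1. Mutant 1 had Col3a1 at 0 CPM in macrophage-like cells.

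**Figure D5:**
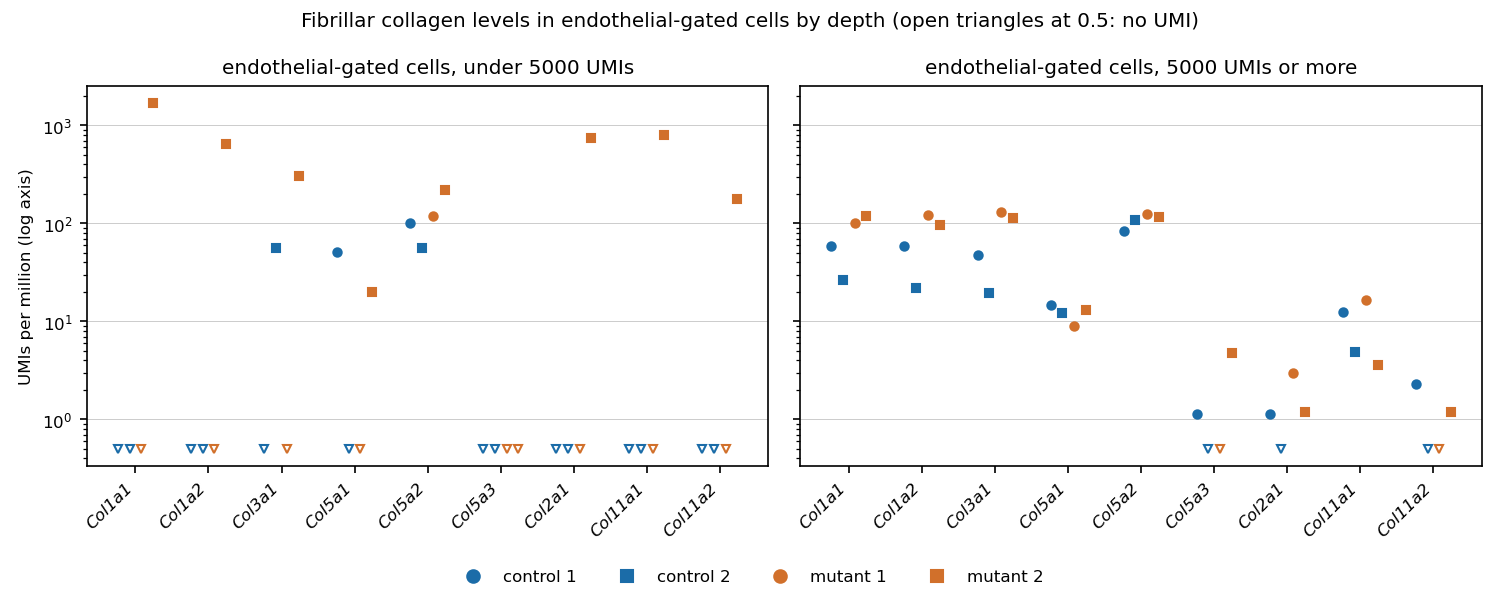
Levels of the 9 fibrillar collagen genes (CPM, log scale, open triangles where no UMI was found) in endothelial-gated cells under 5000 UMIs and of 5000 UMIs or more, 1 point per library. In mutant 2 Col1a1 is at 1685 CPM in the 43 shallow cells and at 120 CPM in the 50 deeper ones.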

How the data were processed

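Single cells of 2 control and 2 mutant noses were profiled by droplet 3′ sequencing after enzymatic dissociation and freezing, per the labels' protocols. The authors deposited counts, whole UMI counts per gene and barcode for each library. The submitters' processing notes name Cell Ranger 4, Seurat 4.3.0 and mm10, whereas the file headers give Cell Ranger 8.0.1. Libraries were made and sequenced by 2 facilities, per the labels' protocols, but their assignment is not given, so no batch term could be used.

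From these counts, cells passed with 500 or more genes and a mitochondrial share no higher than 10%, and were gated by markers. The marker lists, gene lists and the 9 genes were chosen with earlier results of these data known, and the rule that turns markers into gates was set after the data were seen. Scrublet's own threshold marked 1, 0, 2 and 1 cells and did not work, so doublets were kept, and removed only in an alternative by the highest scores (0.8% per 1000 barcodes). UMIs were summed per library and gate and tested with edgeR 4.0.16 in R 4.3.3 (TMM, filterByExpr, quasi-likelihood F test, Benjamini-Hochberg over all genes tested). Contrasts between gates had the library as a block. A gene was called at an adjusted p under 0.05. The edgeR test of mutant against control was also run on simulated counts for the mesenchyme, endothelial and macrophage gates, with a fixed spread. Contrasts between gates, the endothelial and macrophage comparison and DESeq2 were not run on simulated counts. DESeq2 1.42.0, RLE size factors, no filter, stricter gates, stricter cell limits (1000 genes, 5% mitochondrial), doublet removal and leaving out each library were alternatives. Intervals are exact (Clopper-Pearson, 95%) and cover counting error only. All 9 genes were named in every comparison, with up to 3 genes of each list by smallest p among those called, or up to 2 by size of difference where none was. Likeness used a pseudocount of 10 CPM and genes of at least 20 CPM in 1 gate.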

Additional observations from a re-analysis of the deposited data

Results flagged for a closer look

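For 3 of the fibrillar collagens every mutant library moved one way in one cell type and the opposite way in another, relative to both controls. Such separation is common with 2 libraries a group: by cell type, 12.5% to 18.7% of all genes tested were lower in both mutants and 15.7% to 26.2% higher in both. Col1a1 was higher in both mutants in endothelial-like cells (log2 difference 2.12) and lower in both in mesenchyme-like cells (-0.35). Col3a1 was higher in endothelial-like cells (1.81) and lower in mesenchyme-like cells (-0.17). Col11a1 was higher in both mutants in endothelial-like (2.48), glia-like (0.93) and epithelial-like cells (0.35) and lower in both in mural-like (-0.77) and mesenchyme-like cells (-0.36). In endothelial-like cells of mutant 2, 80 of the 83 Col11a1 UMIs lay in the 43 cells under 5000 UMIs. In deeper cells Col11a1 was at 12.6, 4.8, 16.5 and 3.6 CPM, so that mutant 2 lay below both controls, and leaving out 1 library at a time gave differences from 0.74 (without mutant 2) to 3.54 (without control 1). The difference between the cell types was not tested for any of these pairs. Of these values only that of Col3a1 in endothelial-like cells was called by edgeR.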

How the results depend on the processing

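Of the log2 differences of named genes, each recomputed under every alternative, 458 values kept direction and call, 27 gained a call, 12 lost it and 6 changed sign. The 6 were Col1a1 (-0.084) and Col1a2 (-0.15) in chondrocyte-like cells with 4 markers required, and Col1a1 (0.26), Col1a2 (0.29), Col3a1 (0.31) and Col5a2 (0.12) in mural-like cells without the mesenchyme condition, which was chosen after seeing the data. The cause was not tested. Of chain ratios, 86 recomputed values moved by less than the spread between libraries. The 4 others were Col1a1 to Col3a1 in osteoblast-like cells (11.8) and Col2a1 to Col1a1 in chondrocyte-like cells (3.92) with 4 markers, Col1a1 to Col3a1 in mural-like cells without the mesenchyme condition (1.04), and Col5a1 to Col5a2 in epithelial-like cells as a mean over cells (0.687). Col1a1 in epithelial-like cells was 0.792% of the level over all cells once doublets were removed.

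Counts of genes called between mutant and control libraries depended on the tool and the filter. With no filter on low counts they were 10 in all cells, 26 in chondrocyte-like, 92 in osteoblast-like, 105 in macrophage-like, 148 in endothelial-like, 188 in mural-like, 46 in glia-like, 275 in epithelial-like and 603 in mesenchyme-like cells and 49 in the endothelial and macrophage comparison. Members called were then 1 in osteoblast-like, macrophage-like and glia-like cells, 5 in endothelial-like cells and 2 in that comparison. DESeq2 gave 30, 3, 13, 16, 6 and 58 genes in all, macrophage-like, endothelial-like, mural-like, epithelial-like and mesenchyme-like cells, and 0 in the comparison. A stricter gate gave 2 genes in macrophage-like and 12 in endothelial-like cells, and 24 genes with 3 members in the comparison. Stricter cell limits gave 14 in endothelial-like and 30 in mural-like cells. Doublet removal gave 113 in mural-like cells, and 9 genes with 1 member in the comparison. Without the mesenchyme condition there were 2, 1, 6, 39 and 11 in osteoblast-like, macrophage-like, endothelial-like and mural-like cells and the comparison. Members called in endothelial-like cells (1) were 0 under the stricter gate, stricter cell limits, doublet removal, DESeq2 and no mesenchyme condition.

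Libraries of the same number in the labels deviated together with r of -0.12 to 0.11 over gates. Such an r over genes cannot tell whether they shared a facility or a batch, since the assignment is not given. With the replicate block, genes called were 17, 6, 89, 217, 13 and 36 in osteoblast-like, macrophage-like, endothelial-like, mural-like, glia-like and mesenchyme-like cells, with 4 members in endothelial-like cells (Col3a1 1.88). With crossed numbers, 4 genes and 0 members were called in chondrocyte-like cells.

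Leaving out 1 library at a time leaves a lone sample that is assumed to vary like the other group. Genes called then ranged over 0 to 410 in all cells, 13 to 53 in chondrocyte-like, 4 to 125 in osteoblast-like, 6 to 52 in macrophage-like, 0 to 304 in endothelial-like, 65 to 250 in mural-like, 0 to 105 in glia-like, 0 to 794 in epithelial-like and 1 to 466 in mesenchyme-like cells and 1 to 54 in the comparison. Members called ranged over 0 to 2 in chondrocyte-like, osteoblast-like, glia-like and epithelial-like cells, 0 to 1 in macrophage-like and mural-like cells, 0 to 5 in endothelial-like cells and 0 to 4 in the comparison. Between mural-like and mesenchyme-like cells genes called were 1860 to 2597. Gates of 20 to 100 cells limit what can be seen of rare chains such as Col5a3.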
